A study of Mus musculus with 16 samples.

Results

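The genes of cholesterol and lipid synthesis were followed through whole mouse embryos collected at embryonic day 9.5 (E9.5), 4 embryos in each of 4 genotypes. The set holds 28 of the 26411 genes in the count files, found by gene symbol, and all 28 passed the filter on low counts that kept 15679 genes. The list of symbols was set with earlier results of these data known. The genotypes, written here as the labels give them, were *Kat6a* WT *Kat6b* WT (wild type), *Kat6a* KO *Kat6b* WT (*Kat6a* KO), *Kat6a* WT *Kat6b* Tg (Tg(*Kat6b*)) and *Kat6a* KO *Kat6b* Tg (*Kat6a* KO Tg(*Kat6b*)). KAT6A and KAT6B are related histone acetyltransferases, and the study asked whether extra *Kat6b* can stand in for missing *Kat6a*. The *Kat6a* null allele removes internal exons. The transgene is several copies of a bacterial artificial chromosome with *Kat6b* and its own flanking sequence, in a line from 1 founder, so an effect of its insertion site cannot be told apart from one of *Kat6b*. All embryos were of an FVB x BALB/c hybrid background, and every one was intact tissue of many cell types, so more cells of a type and more RNA per cell cannot be told apart.

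Cells build cholesterol from acetyl-CoA. The mevalonate steps make isoprenoid units, the later steps join them into squalene, close the ring and trim it to cholesterol, and neighbouring enzymes turn acetyl-CoA into fatty acids. Most of these genes are targets of the transcription factors SREBP-2 (*Srebf2*) and SREBP-1, which SCAP carries from the endoplasmic reticulum to be activated when sterols are low and which INSIG proteins hold back when sterols are plentiful. At this stage the embryo is fed through the yolk sac and also makes sterol itself, and loss of late enzymes such as DHCR7 or NSDHL is known to disturb development.

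Promoters are shown first, because many members were high in the same embryos. RefSeq promoter sequences (GRCm38.p6, 250 bases before to 50 bases after the start site, 300 in all) matched 23 of the 28 members by symbol, leaving out *Sqle*, *Fdft1*, *Fdps*, *Scd2* and *Stard4*. Both strands were searched for TCACNCCA, a core of the sterol regulatory element, for CCAAT, bound by NF-Y, and for GGGCGG, a GC box bound by Sp1. CCAAT can share end bases with either of the other motifs. CCAAT or its complement ATTGG was in 21 of the 23 members (91.3%), compared with 41.1% of the 27025 genes in the table and 42.8% of the 12228 tested genes among them. GGGCGG was in 20 of 23 (87.0%), compared with 38.2% and 67.1%. The sterol element core was in 3 of 23 (13.0%), compared with 4.97% and 4.44%. The 3 were *Hmgcs1*, starting at -137 from the start site, *Srebf2* at -162 and *Msmo1* at -177. These matches describe the letters in the window and are not sites of measured binding. Stretches of 120 bases upstream of 4 members are given 5′ to 3′ on the strand of the gene, as located by exact match in GRCm39. They were chosen as the first enzyme of the pathway in the set to have the sterol core, the gene of the controlling factor, the inhibitor with the largest difference between litters, and the enzyme with the lowest FDR between genotypes. That FDR was from *Kat6a* KO Tg(*Kat6b*) vs. *Kat6a* KO embryos, which share no litter. Each stretch was placed upstream, outside the annotated gene, where it held the most sterol cores and then the most motif matches. The number of motifs in it therefore follows from that choice. Capitals mark the searched motifs on either strand.
Hmgcs1 (chr13:120151749-120151868, plus strand): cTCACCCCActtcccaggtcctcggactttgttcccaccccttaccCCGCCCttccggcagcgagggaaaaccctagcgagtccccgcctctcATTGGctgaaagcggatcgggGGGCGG
Srebf2 (chr15:82031220-82031339, plus strand): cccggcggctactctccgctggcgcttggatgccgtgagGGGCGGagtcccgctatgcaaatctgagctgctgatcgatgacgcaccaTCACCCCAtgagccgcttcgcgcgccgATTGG
Insig1 (chr5:28276170-28276289, plus strand): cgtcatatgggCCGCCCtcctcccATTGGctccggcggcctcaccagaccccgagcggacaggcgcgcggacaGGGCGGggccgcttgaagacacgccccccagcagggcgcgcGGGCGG
Hsd17b7 (chr1:169796903-169797022, minus strand): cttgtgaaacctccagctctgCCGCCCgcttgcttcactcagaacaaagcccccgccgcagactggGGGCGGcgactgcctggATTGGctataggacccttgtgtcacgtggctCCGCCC

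Counts on genes summed to 14407277 to 45665680 per embryo, and every member had between 159 and 64032 reads in every embryo. *Kat6b* was at 42.6 to 48.2 CPM (counts scaled to library size) in wild-type and 46.5 to 51.0 CPM in *Kat6a* KO embryos, against 155 to 227 CPM in Tg(*Kat6b*) and 192 to 203 CPM in *Kat6a* KO Tg(*Kat6b*) embryos, without overlap. *Kat6a* was at 138 to 218 CPM over all embryos and did not separate the genotypes, and whole-gene counts do not check an allele that lacks internal exons. The litters matter for what follows. Litters 801 and 803 held 2 wild-type and all 4 *Kat6a* KO embryos, litters 2597 and 2598 held the other 2 wild-type and all 4 Tg(*Kat6b*) embryos, and litters 483 and 498 held the 4 *Kat6a* KO Tg(*Kat6b*) embryos and no other genotype. Both wild-type embryos of litters 801 and 803 were male and both of litters 2597 and 2598 were female.

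Levels in wild-type embryos were compared between genes as RPKM, reads scaled to library size and to listed gene length. *Scd2*, a stearoyl-CoA desaturase, was highest, at 276 ± 39.0 RPKM (SD, n = 4), *Acly*, which makes cytosolic acetyl-CoA from citrate, at 119 ± 16.5 and *Fasn*, the fatty acid synthase, at 74.3 ± 11.4. *Hmgcs1*, which makes HMG-CoA, was the highest gene of the sterol route at 124 ± 36.4 RPKM. The lowest were *Acss2*, which makes acetyl-CoA from acetate, at 3.79 ± 0.349, *Ggps1*, which makes the geranylgeranyl group for proteins, at 7.76 ± 0.427, and *Ebp*, the sterol isomerase, at 7.77 ± 1.03. The ratio of the highest to the lowest mean RPKM was 72.8, and 27 of 28 members were above the median of the tested genes, 7.29 RPKM. *Lbr* and *Tm7sf2* code for enzymes of the same reduction, the former also a protein of the nuclear envelope, and *Lbr* was the higher with a ratio of mean RPKM of 4.28. Of the 27 neighbouring pairs in the order of mean RPKM, 24 overlapped in their embryo values, so the middle of the order is not resolved.

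**Figure D1:**
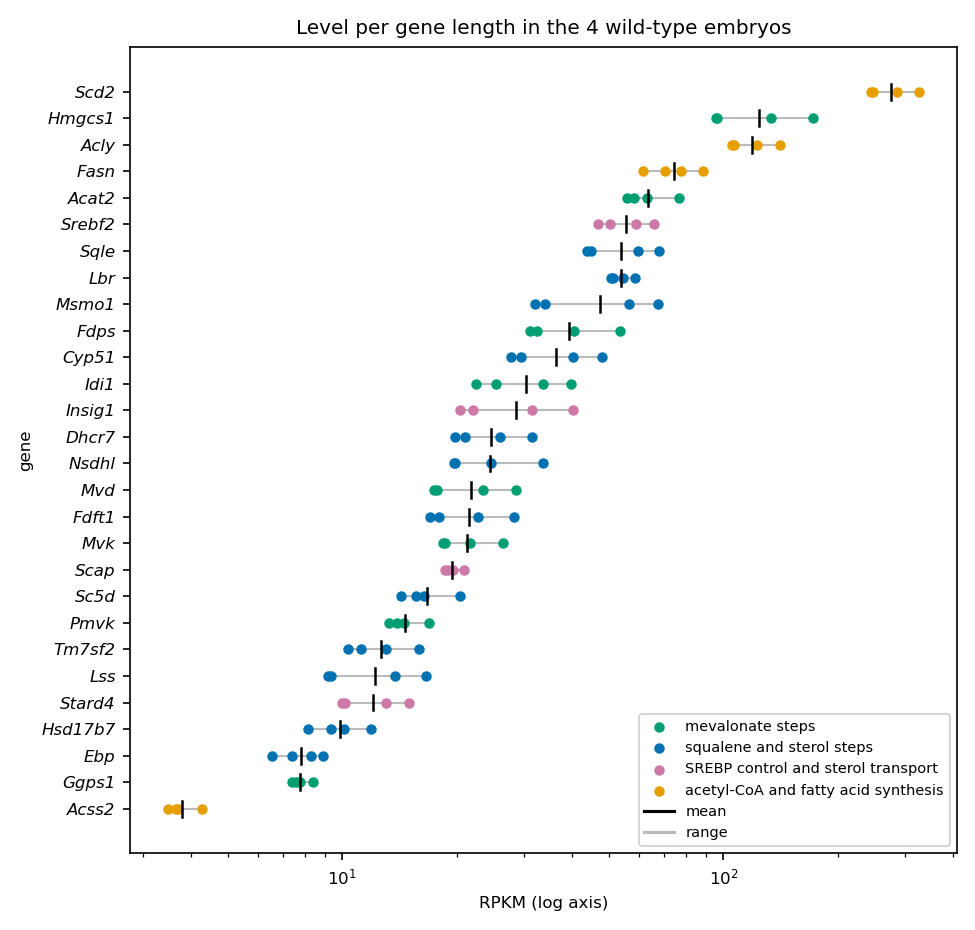
Level of each member in the 4 wild-type embryos as RPKM on a log axis, with points for embryos, a black mark for the mean and a grey line for the range, coloured by role. *Scd2* was the highest at a mean of 276 RPKM and *Acss2* the lowest at 3.79 RPKM, and most neighbours overlap.

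Embryo by embryo, most sterol genes set litters 801 and 803 apart from the others. *Hmgcs1* was at 615, 477, 344 and 341 CPM in wild-type replicates 1 to 4, of litters 801, 803, 2597 and 2598. It was at 609, 487, 488 and 461 CPM in the *Kat6a* KO embryos, all of litters 801 and 803, at 362, 352, 349.7 and 351 CPM in the Tg(*Kat6b*) embryos and at 421, 331, 403 and 331 CPM in the *Kat6a* KO Tg(*Kat6b*) embryos. The 6 embryos of litters 801 and 803 were above the other 10, whether wild type or *Kat6a* KO.

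*Insig1*, which codes for the sterol-sensing inhibitor of SREBP activation, was at 107, 83.2, 53.8 and 58.4 CPM in wild-type embryos and 114, 89.2, 83.6 and 79.9 CPM in *Kat6a* KO embryos. Tg(*Kat6b*) embryos had 58.0, 60.7, 57.2 and 50.7 CPM and *Kat6a* KO Tg(*Kat6b*) embryos 76.6, 55.1, 66.6 and 53.1 CPM. The same split was seen, with the mean of litters 801 and 803 above that of the other embryos by a ratio of 1.57 (geometric means), the largest in the set. *Lss*, which closes the sterol ring, had a ratio of 1.55 and *Msmo1*, which removes methyl groups, also 1.55.

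In all, 16 of 28 members (57.1%) were higher in every embryo of litters 801 and 803 than in every other embryo, compared with 0.415% of tested genes (65 of 15679), and no member was lower in that way. The median difference of the members on the log2 CPM scale was 0.40, and that of all tested genes was 0.0039. This split was chosen after the values were seen, is not crossed with genotype, and carries no test here. Against litters 2597 and 2598 alone, which differ from 801 and 803 in carrying Tg(*Kat6b*) rather than *Kat6a* KO embryos beside their wild types, 20 members were higher without overlap, compared with 1.68% of tested genes. Against litters 483 and 498, 18 were, compared with 3.65%.

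The 16 were 4 of 8 genes of the mevalonate steps, 8 of 12 of the squalene and sterol steps, 3 of 4 of SREBP control and sterol transport and 1 of 4 of acetyl-CoA and fatty acid synthesis. Summed over the 20 mevalonate and sterol enzymes, wild-type embryos had 2377, 1995, 1545 and 1524 CPM, and *Kat6a* KO embryos had 2409, 2068, 1991 and 1934 CPM. Tg(*Kat6b*) embryos had 1595, 1524, 1568 and 1538 CPM, and *Kat6a* KO Tg(*Kat6b*) embryos 1768, 1527, 1732 and 1542 CPM. Wild-type replicate 1 and *Kat6a* KO replicate 1, a male and a female of litter 801, were the highest of the 16, and the third embryo of that litter, *Kat6a* KO replicate 2, lay close to those of litter 803. Wild-type replicates 3 and 4 lay at the level of the Tg(*Kat6b*) embryos.

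**Figure D2:**
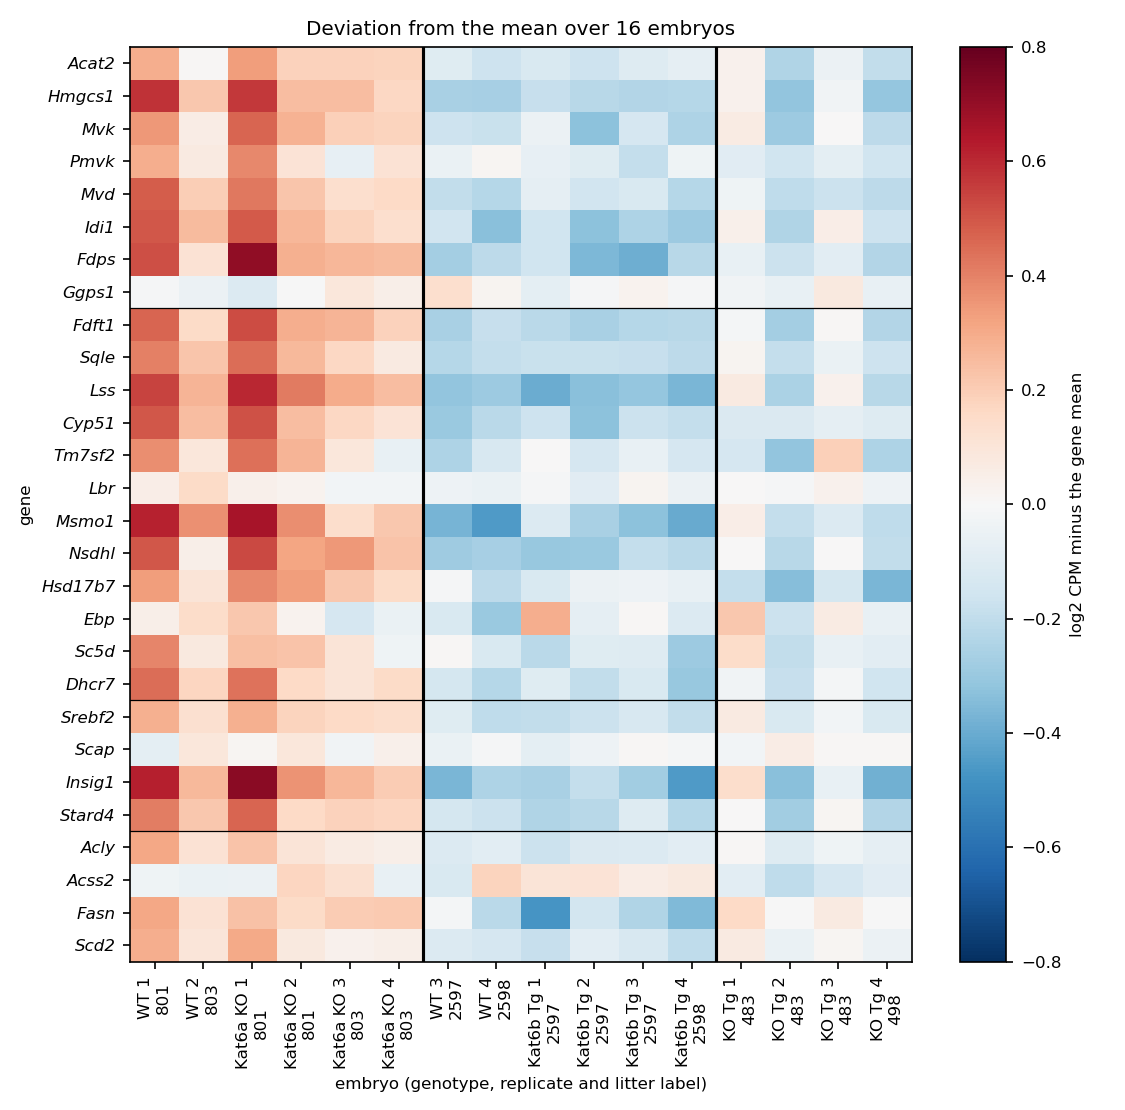
Log2 CPM of each member minus its mean over the 16 embryos, with embryos ordered by litter pair (black vertical lines) and labelled by genotype, replicate and litter. Embryos of litters 801 and 803, wild type and *Kat6a* KO alike, are red for most members, while *Ggps1*, *Scap*, *Lbr* and *Acss2* stay pale.

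The 2 litter pairs that contain wild-type embryos allow a comparison without any change of genotype. As this divides the wild type by the split already seen, its values are a description with no test. In wild-type embryos of litters 801 and 803 vs. those of litters 2597 and 2598, *Msmo1* had the largest log2 fold change, 0.91 ± 0.15 (SE, n = 2 against 2). The members had a median log2 fold change of 0.41, compared with 0.0020 for all genes, and 26 of 28 were positive. In 25 members the values did not overlap in this direction, which 19.8% of tested genes also showed. Sex differed with the litter in these 4 embryos, so sex and litter cannot be told apart in them. With sex as a covariate, estimated over all 16 embryos, the median was 0.38. Sex also differed with the litter among the *Kat6a* KO embryos of litters 801 and 803. There the females, of litter 801, had 609 and 487 CPM of *Hmgcs1* and the males, of litter 803, 488 and 461 CPM. In *Kat6a* KO Tg(*Kat6b*) embryos 25 of 28 members were higher in both males than in both females, compared with 26.2% of tested genes. In Tg(*Kat6b*) embryos 8 were, compared with 12.3%. The part of sex in the difference between the wild-type embryos was not tested.

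Loss of *Kat6a* was compared with the wild type first over all embryos. Of the 28 members, 0 were called (edgeR FDR under 0.05, adjusted over all tested genes) in *Kat6a* KO vs. wild-type embryos, compared with 1.88% of tested genes (295 of 15679). By limma-voom and by DESeq2 the count was also 0, and 4 members had an unadjusted p under 0.05, compared with 15.2% of tested genes. On the log2 scale the members had a median fold change of 0.16, with 26 of 28 positive, compared with a median of 0.0033 for all genes. No member was free of overlap between the groups, compared with 7.97% of tested genes. *Nsdhl*, a dehydrogenase of the demethylation steps, had the highest estimate at 0.33 ± 0.14 (SE, edgeR FDR = 0.281). Its wild-type embryos were at 74.5, 54.6, 43.4 and 43.9 CPM and its *Kat6a* KO embryos at 76.3, 65.7, 67.2 and 62.0 CPM, so wild-type replicate 1 lay among the *Kat6a* KO embryos and the other wild-type embryos lay below them. Without wild-type replicate 1 the count rose to 7 (*Acat2*, *Mvk*, *Mvd*, *Fdps*, *Nsdhl*, *Hsd17b7* and *Srebf2*). That fit kept wild-type replicate 2 of litter 803 and replicates 3 and 4 of litters 2597 and 2598. Over the 16 fits without 1 embryo, 137 to 432 of all tested genes were called.

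Within litters 801 and 803 the estimates for the same genotypes lay near 0 and were mostly negative. Both wild-type embryos of these litters were male, and the *Kat6a* KO embryos were of both sexes. The fit had no term for each single litter and, unlike the one over all embryos, no surrogate variable. Of the 28 members 0 were called between the 4 *Kat6a* KO and the 2 wild-type embryos there, compared with 0.217% of tested genes (34 of 15679), and 1 had an unadjusted p under 0.05, compared with 8.58%. Their median log2 fold change was -0.054, with 20 of 28 negative, and the estimates ran from -0.14 to 0.095. For *Hmgcs1* the estimate was -0.10, with an interval of -0.35 to 0.15, and for *Nsdhl* it was 0.063, with an interval of -0.14 to 0.27 (95% normal interval). The member at an unadjusted p under 0.05 was *Lbr*, also the one member whose groups did not overlap, compared with 9.75% of tested genes without overlap in this direction, at 194 and 208 CPM in the wild-type and 184 to 193 CPM in the *Kat6a* KO embryos.

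**Figure D3:**
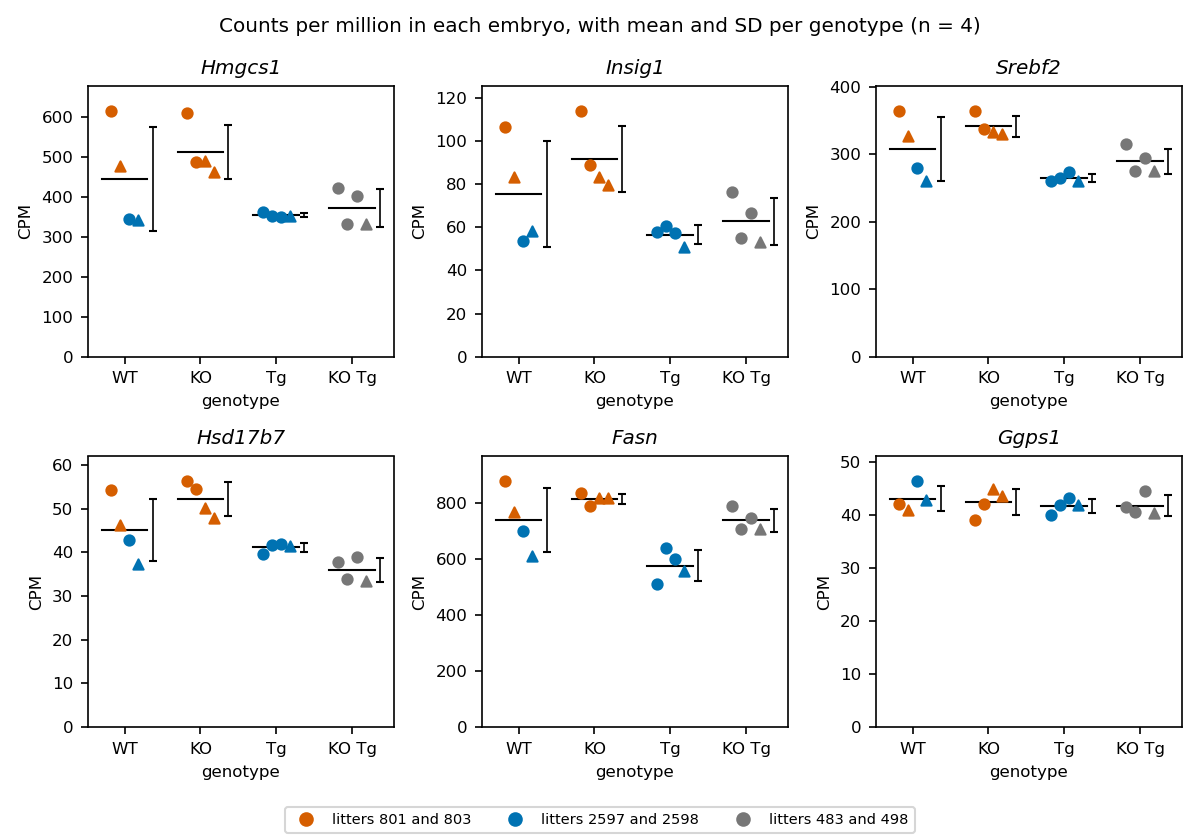
CPM of 6 members in each embryo by genotype (WT, *Kat6a* KO, Tg(*Kat6b*) and *Kat6a* KO Tg(*Kat6b*) as KO Tg), coloured by litter pair, with circles for litters 801, 2597 and 483, triangles for 803, 2598 and 498, lines for the mean and bars for the SD (n = 4). Wild-type points separate by litter for *Hmgcs1*, *Insig1* and *Srebf2*, *Hsd17b7* is lowest in KO Tg, *Fasn* is lowest in Tg, and *Ggps1* is level at 39.1 to 46.3 CPM.

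Embryos without *Kat6a* were then compared with and without the transgene. In *Kat6a* KO Tg(*Kat6b*) vs. *Kat6a* KO embryos 9 members were lower past the threshold and none higher, compared with 3.74% of tested genes called lower (587 of 15679). The median log2 fold change of the members was -0.38, with 27 of 28 negative, and that of all genes was -0.0049. In 20 members every *Kat6a* KO Tg(*Kat6b*) embryo was below every *Kat6a* KO embryo, compared with 7.94% of tested genes. These groups share no litter, so genotype and litter cannot be told apart in this comparison, and the wild-type embryos of the other litter pairs differed by a median of 0.41 among themselves.

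*Hsd17b7*, a reductase of the sterol demethylation steps, gave the lowest FDR. Wild-type embryos had 54.3, 46.2, 42.8 and 37.3 CPM, *Kat6a* KO embryos 56.3, 54.4, 50.1 and 48.0 CPM, Tg(*Kat6b*) embryos 39.6, 41.7, 42.0 and 41.4 CPM and *Kat6a* KO Tg(*Kat6b*) embryos 37.8, 34.0, 39.0 and 33.5 CPM. The *Kat6a* KO Tg(*Kat6b*) embryos were below all *Kat6a* KO and all Tg(*Kat6b*) embryos and overlapped the wild type only at its lowest embryo. Wild-type replicates 1 and 2, of litters 801 and 803, were above replicates 3 and 4. The log2 fold change vs. *Kat6a* KO was -0.56 ± 0.089 (SE, edgeR FDR = 0.00202), and the call held in all 16 fits that left out 1 embryo and in all 11 other alternatives. None of these fits can tell genotype apart from litter in this comparison. Compared with the wild type the estimate was -0.35 ± 0.091 (edgeR FDR = 0.0940), which passed with DESeq2, with the replicate number as a block or without wild-type replicate 4.

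Of the mevalonate steps 5 of 8 genes were lower. *Fdps*, which makes farnesyl diphosphate, was at 78.4, 59.4, 45.4 and 47.3 CPM in wild-type and 89.7, 66.6, 65.9 and 65.1 CPM in *Kat6a* KO embryos. Its level was 49.1, 42.7, 41.8 and 47.0 CPM in Tg(*Kat6b*) and 52.6, 48.7, 51.6 and 46.5 CPM in *Kat6a* KO Tg(*Kat6b*) embryos. The log2 fold change of *Kat6a* KO Tg(*Kat6b*) vs. *Kat6a* KO was -0.60 ± 0.15 (SE, edgeR FDR = 0.0383). Every *Kat6a* KO embryo was above every embryo with the transgene, and the wild type spanned both.

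*Mvd*, which makes isopentenyl diphosphate, was at 53.1, 43.6, 33.1 and 32.5 CPM in wild-type, 50.9, 44.5, 41.7 and 42.4 CPM in *Kat6a* KO, 36.2, 34.2, 35.0 and 32.5 CPM in Tg(*Kat6b*) and 37.2, 33.0, 33.8 and 33.0 CPM in *Kat6a* KO Tg(*Kat6b*) embryos, with a log2 fold change of -0.46 (edgeR FDR = 0.0170). *Mvk*, the mevalonate kinase, had 45.7, 37.4, 32.1 and 31.9 CPM in wild-type, 49.8, 43.7, 41.0 and 40.8 CPM in *Kat6a* KO, 34.8, 28.7, 32.8 and 30.4 CPM in Tg(*Kat6b*) and 37.6, 29.5, 36.1 and 31.2 CPM in *Kat6a* KO Tg(*Kat6b*) embryos, and changed by -0.42 (edgeR FDR = 0.0228). In both genes the *Kat6a* KO embryos lay above all embryos that carried the transgene, and wild-type replicates 3 and 4 lay at the level of the latter.

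*Acat2*, a cytosolic acetoacetyl-CoA thiolase, was at 159, 131, 121 and 116 CPM in wild-type, 164, 148, 148 and 147 CPM in *Kat6a* KO, 119.5, 116, 121 and 124 CPM in Tg(*Kat6b*) and 133, 110.2, 126 and 113 CPM in *Kat6a* KO Tg(*Kat6b*) embryos. Its log2 fold change was -0.34 (edgeR FDR = 0.0268), and 7.30% of its exon bases overlap *Tcp1* and a predicted gene on the opposite strand. *Pmvk*, the phosphomevalonate kinase, was at 28.8, 24.7, 22.6 and 23.8 CPM in wild-type, 30.7, 25.4, 22.5 and 25.5 CPM in *Kat6a* KO, 22.4, 22.0, 20.6 and 23.0 CPM in Tg(*Kat6b*) and 22.1, 21.0, 22.3 and 21.1 CPM in *Kat6a* KO Tg(*Kat6b*) embryos. It changed by -0.30 (edgeR FDR = 0.0307), and its groups almost met.

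Of the squalene and sterol steps 2 of 12 genes passed, *Hsd17b7* and *Fdft1*, the squalene synthase. *Fdft1* was at 104, 84.0, 63.0 and 66.3 CPM in wild-type, 108, 92.2, 90.9 and 85.8 CPM in *Kat6a* KO, 65.1, 63.1, 64.3 and 64.7 CPM in Tg(*Kat6b*) and 74.6, 62.4, 76.1 and 64.1 CPM in *Kat6a* KO Tg(*Kat6b*) embryos, with a log2 fold change of -0.49 (edgeR FDR = 0.0466). *Ctsb*, on the opposite strand, overlaps 24.8% of its exon bases, and the library kit did not mark strand. *Lss* (-0.55), *Msmo1* (-0.60) and *Nsdhl* (-0.50) had log2 fold changes that did not pass, with FDRs (edgeR) of 0.0607, 0.0579 and 0.0579. Their groups did not overlap either.

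Of the genes of SREBP control and sterol transport 2 of 4 were lower. *Srebf2* was at 365, 327, 279.7 and 260.3 CPM in wild-type, 365, 338, 334 and 330.0 CPM in *Kat6a* KO, 260.4, 266, 274 and 261 CPM in Tg(*Kat6b*) and 315, 275, 294 and 275 CPM in *Kat6a* KO Tg(*Kat6b*) embryos, with a log2 fold change of -0.27 ± 0.074 (SE, edgeR FDR = 0.0466). *Stard4*, a carrier of sterol between membranes, was at 81.0, 70.7, 55.2 and 54.0 CPM in wild-type, 83.9, 68.1, 69.3 and 68.5 CPM in *Kat6a* KO, 51.6, 52.2, 56.6 and 52.0 CPM in Tg(*Kat6b*) and 60.9, 50.1, 61.4 and 51.7 CPM in *Kat6a* KO Tg(*Kat6b*) embryos, and changed by -0.41 (edgeR FDR = 0.0466). For both, the *Kat6a* KO embryos were above all embryos with the transgene. *Insig1* had the largest estimate of all, -0.62 ± 0.20, and did not pass (edgeR FDR = 0.0836). No gene of acetyl-CoA and fatty acid synthesis passed.

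The number of members lower in this comparison was unstable. Leaving out 1 embryo moved it between 1 (without *Kat6a* KO replicate 1) and 18 (without wild-type replicate 1). It was 2 without *Kat6a* KO replicate 2 or *Kat6a* KO Tg(*Kat6b*) replicate 2 or 4, and 5 without *Kat6a* KO replicate 3, *Kat6a* KO Tg(*Kat6b*) replicate 3, Tg(*Kat6b*) replicate 2 or 3 or wild-type replicate 3. The number called over all tested genes moved as well, with its range given at the end.

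**Figure D4:**
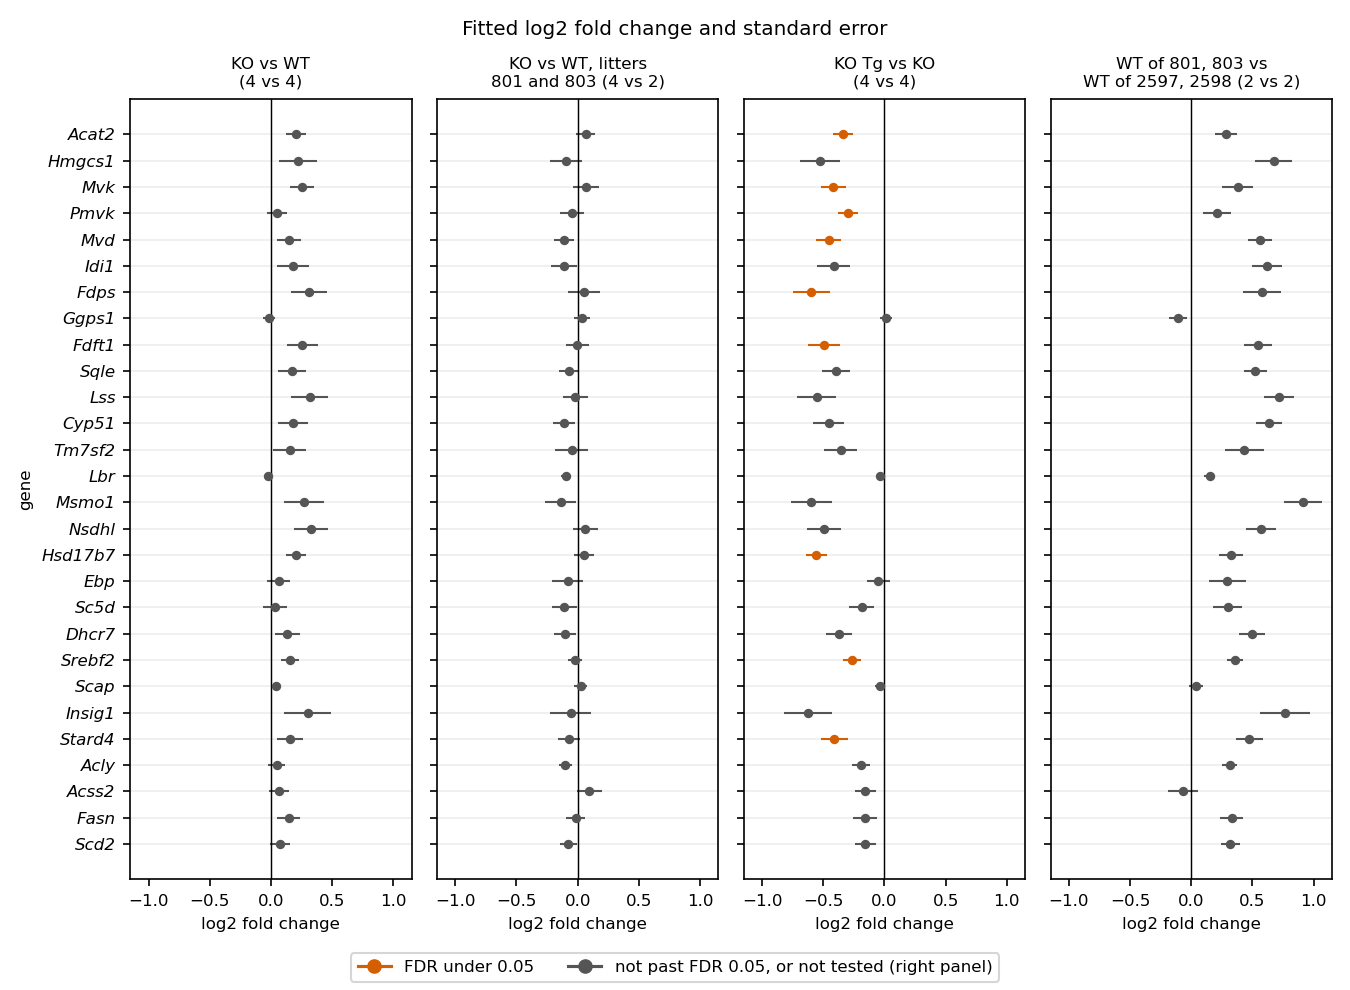
Fitted log2 fold change of each member with its standard error in 4 comparisons, orange where the FDR is under 0.05. *Kat6a* KO vs. wild type has 0 orange points over all embryos and within litters 801 and 803, and *Kat6a* KO Tg(*Kat6b*) vs. *Kat6a* KO has 9 below zero. The wild-type embryos of the litter pairs carry no call, and 26 of their 28 points lie above zero.

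In Tg(*Kat6b*) vs. *Kat6a* KO embryos 14 members were lower past the threshold and none higher, compared with 7.19% of tested genes called lower (1128 of 15679). In 21 members the groups did not overlap in this direction, compared with 7.94% of tested genes, and the median log2 fold change was -0.35. The comparison shares the *Kat6a* KO embryos with the one above. The 14 were *Acat2*, *Mvk*, *Mvd*, *Idi1*, which interconverts the isoprenoid units, and *Fdps* of the mevalonate steps, *Fdft1*, *Sqle*, *Lss*, *Nsdhl*, *Hsd17b7* and *Dhcr7*, the last reductase of the route, of the sterol steps, and *Srebf2*, *Stard4* and *Fasn*.

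*Lss* had the largest log2 fold change among them, -0.70 ± 0.16 (SE, edgeR FDR = 0.0159), with 109.7, 96.5, 88.6 and 85.6 CPM in *Kat6a* KO, 54.9, 57.3, 58.2 and 56.1 CPM in Tg(*Kat6b*), 105, 87.2, 58.0 and 59.0 CPM in wild-type and 75.7, 60.6, 73.9 and 61.8 CPM in *Kat6a* KO Tg(*Kat6b*) embryos. Wild-type replicates 3 and 4, littermates of the Tg(*Kat6b*) embryos, lay close to the Tg(*Kat6b*) level, and replicates 1 and 2, littermates of the *Kat6a* KO embryos, within the *Kat6a* KO range.

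*Sqle*, the squalene epoxidase, was at 186, 164, 120.4 and 123 CPM in wild-type, 192, 168, 158 and 148 CPM in *Kat6a* KO, 124, 125, 124 and 122 CPM in Tg(*Kat6b*) and 143, 123, 136 and 126 CPM in *Kat6a* KO Tg(*Kat6b*) embryos. *Idi1* was at 114, 96.7, 72.7 and 64.3 CPM in wild-type, 114, 97.4, 91.5 and 88.8 CPM in *Kat6a* KO, 72.3, 64.4, 68.3 and 66.3 CPM in Tg(*Kat6b*) and 83.4, 68.4, 83.9 and 72.2 CPM in *Kat6a* KO Tg(*Kat6b*) embryos, and may share reads with the pseudogene *Idi1-ps1*. *Dhcr7* had 106, 87.5, 70.5 and 66.4 CPM in wild-type, 105, 86.8, 83.4 and 86.4 CPM in *Kat6a* KO, 72.7, 67.7, 71.3 and 62.9 CPM in Tg(*Kat6b*) and 76.3, 68.2, 76.9 and 69.4 CPM in *Kat6a* KO Tg(*Kat6b*) embryos. The 3 genes showed the division of the wild type by litter that *Lss* showed.

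These groups share no litter either, but each has wild-type littermates. The 12 embryos of litters 801, 803, 2597 and 2598 were fitted with a term for each litter and no surrogate variable. The parts of litter, of the surrogate variables and of the embryos left out were not tested apart. In this fit 0 of 28 members were called, compared with 0.0515% of tested genes (8 of 15533). There 1 had an unadjusted p under 0.05, compared with 6.77%. The median log2 fold change of the members was then 0.0088, with estimates from -0.20 to 0.28. The same fit gave 0 members called for *Kat6a* KO vs. wild type, compared with 0.116% of tested genes, and for Tg(*Kat6b*) vs. wild type, compared with 0.00644%. Leaving out 1 embryo moved the unblocked count between 2 (without Tg(*Kat6b*) replicate 1) and 22 (without wild-type replicate 1). It was 4 without *Kat6a* KO replicate 2, 7 without *Kat6a* KO replicate 3 or Tg(*Kat6b*) replicate 3, and 8 without *Kat6a* KO replicate 1 or Tg(*Kat6b*) replicate 2. Calls over all tested genes moved too, with their range given at the end.

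Tg(*Kat6b*) vs. wild-type embryos gave 0 members called, compared with 0.140% of tested genes (22 of 15679). With limma-voom the count was 0 and with DESeq2 it was 1, *Fasn*, and 8 members had an unadjusted p under 0.05, compared with 11.5%. The median log2 fold change was -0.21 over all embryos. Within litters 2597 and 2598 it was 0.0013, again with 0 members called, compared with 0.00638% of tested genes (1 of 15679, *Kat6b* itself), and with 1 at an unadjusted p under 0.05, compared with 5.66%. There *Hmgcs1* changed by 0.045, with an interval of -0.21 to 0.30, and *Lss* by -0.047, with an interval of -0.26 to 0.17. Both wild-type embryos of these litters were female, and the Tg(*Kat6b*) embryos were of both sexes. The fit within these litters had no term for each single litter and no surrogate variable.

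*Fasn* stood apart from the sterol genes. It was at 878, 769, 699.8 and 609.6 CPM in wild-type, 833, 789, 816 and 818 CPM in *Kat6a* KO, 510.0, 639, 601 and 556 CPM in Tg(*Kat6b*) and 790.1, 707, 746 and 706 CPM in *Kat6a* KO Tg(*Kat6b*) embryos, so 3 of 4 Tg(*Kat6b*) embryos were below all other embryos and the *Kat6a* KO Tg(*Kat6b*) embryos lay with the wild type. The log2 fold change was -0.48 ± 0.10 (SE, edgeR FDR = 0.00926) in Tg(*Kat6b*) vs. *Kat6a* KO and -0.34 ± 0.10 (edgeR FDR = 0.210) in Tg(*Kat6b*) vs. wild-type embryos. Within litters 2597 and 2598 it was -0.18, with an interval of -0.34 to -0.03 (edgeR FDR = 0.861).

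*Kat6a* KO Tg(*Kat6b*) vs. wild-type embryos gave 0 members called, compared with 0.670% of tested genes (105 of 15679), and 0 with limma-voom and 1 with DESeq2, *Hsd17b7*. Of the members 5 had an unadjusted p under 0.05, compared with 12.7%, and the median log2 fold change was -0.21. *Msmo1* was at 125, 105, 62.6 and 59.3 CPM in wild-type and 84.3, 71.1, 75.3 and 70.6 CPM in *Kat6a* KO Tg(*Kat6b*) embryos, so the latter lay between the wild-type embryos of the 2 litter pairs.

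Comparing the transgenic groups, *Kat6a* KO Tg(*Kat6b*) vs. Tg(*Kat6b*), 0 members were called, compared with 3.41% of tested genes (535 of 15679), also 0 by limma-voom and DESeq2, and 2 had an unadjusted p under 0.05, compared with 18.9%. The median log2 fold change was 0.014. In 7 of 28 members (*Cyp51*, *Lss*, *Srebf2*, *Fasn* and *Scd2* higher, *Hsd17b7* and *Acss2* lower) the groups did not overlap, compared with 10.5% of tested genes. The estimate was 0.32 ± 0.11 for *Fasn* (edgeR FDR = 0.127) and -0.23 ± 0.10 for *Hsd17b7* (edgeR FDR = 0.203). *Fasn* passed with sex as a covariate, in a fit of these genotypes alone and without wild-type replicate 4.

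Whether the change with *Kat6a* loss differed by transgene was tested as an interaction, which called 0 members, compared with 0.153% of tested genes (24 of 15679), with 0 by limma-voom and DESeq2. The unadjusted p was under 0.05 for 1 member, compared with 14.6%. The largest estimate was that of *Hsd17b7*, -0.43 ± 0.13 (SE, edgeR FDR = 0.162).

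Females were compared with males with genotype in the fit. Of the members 0 were called, compared with 0.0765% of tested genes (12 of 15679), with 0 by limma-voom and DESeq2, and 3 had an unadjusted p under 0.05, compared with 4.60%. The median log2 fold change was -0.12, with 26 of 28 negative, and *Nsdhl* and *Ebp*, both on the X chromosome, changed by -0.16 and -0.15. Wild-type females and males were of different litters. In the *Kat6a* KO Tg(*Kat6b*) embryos, where replicates 1 and 3 were male and 2 and 4 female, the last the only embryo of litter 498, 25 of 28 members were higher in both males than in both females, compared with 26.2% of tested genes. In the Tg(*Kat6b*) embryos, with replicates 1 and 3 male, 8 were, compared with 12.3% of tested genes. The median difference of males minus females on the log2 CPM scale was 0.17 in *Kat6a* KO Tg(*Kat6b*) and 0.018 in Tg(*Kat6b*) embryos.

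Of the members, 5 had nearly level means between litters 801 and 803 and the other embryos. *Ggps1* was at 39.1 to 46.3 CPM over the 16 embryos, *Scap*, the SREBP escort, at 84.5 to 94.8 CPM, *Lbr* at 176 to 208 CPM, *Acss2* at 9.33 to 12.2 CPM and *Ebp* at 11.4 to 17.1 CPM. In litters 801 and 803 their mean differed from the other embryos by a ratio of 0.995 for *Ggps1*, 1.02 for *Acss2*, 1.03 for *Scap*, 1.04 for *Lbr* and 1.05 for *Ebp*. For each of the other 23 members the ratio was between 1.17 and 1.57. In the wild type alone, all 12 genes of the squalene and sterol steps, with *Lbr* and *Ebp*, were higher in litters 801 and 803 without overlap. Of tested genes 19.8% were, and 1 gene of the mevalonate steps was lower without overlap.

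Of the members not yet described, some split by litter and some overlapped. *Cyp51*, which removes a methyl group from lanosterol, was at 160.2 to 211 CPM in litters 801 and 803 and 118 to 141 CPM in the other embryos, with 28.3% of its exon bases overlapped by genes on the opposite strand. *Tm7sf2* was at 17.3 to 24.5 and 14.5 to 20.7 CPM, and *Sc5d*, the desaturase before the last step, at 34.0 to 45.7 and 28.5 to 38.7 CPM, both with overlap. *Acly* was at 520.0 to 623 and 447 to 506 CPM, without overlap, and *Scd2* at 1490.4 to 1795 and 1263 to 1530.3 CPM, with it.

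Because the embryos formed clusters by litter, co-variation was measured within litter pairs, over 6 embryos each and for 6 pairs of genes, giving 12 tests adjusted together. Each litter pair still mixes litters, genotypes and sexes. The permutation shuffled its 6 embryos freely, although littermates are not independent, so its p-values are approximate. In litters 801 and 803 r passed for 4 of the 6 pairs and rho for none. Pearson's r was 0.98 for *Sqle* and *Idi1* (exact permutation, two-sided, p = 0.00278, adjusted p = 0.0333), with Spearman's rho of 0.94 (p = 0.0167, adjusted p = 0.10, by the same exact test). It was 0.97 for *Insig1* and *Hmgcs1* (exact p = 0.00972, adjusted p = 0.0389), 0.97 for *Cyp51* and *Msmo1* (exact p = 0.00833, adjusted p = 0.0389) and 0.98 for *Srebf2* and *Hmgcs1* (exact p = 0.0153, adjusted p = 0.0458), with rho of 0.89 in each of these (exact p = 0.0333, adjusted p = 0.10). *Acly* and *Fasn* (r = 0.72, rho = 0.43) and *Lbr* and *Tm7sf2* (r = 0.20, rho = 0.54) did not pass, with exact p of 0.114 and 0.722 for r and 0.419 and 0.297 for rho. Without the 2 embryos farthest from the median of the first gene, r was 0.99 for *Sqle* and *Idi1*, 0.79 for *Insig1* and *Hmgcs1*, 0.81 for *Cyp51* and *Msmo1* and 0.60 for *Srebf2* and *Hmgcs1*, over the 4 embryos left, where the exact test cannot give a p below 0.0833. It was then -0.96 for *Acly* and *Fasn* and 0.96 for *Lbr* and *Tm7sf2*.

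In litters 2597 and 2598 none of the 6 relations passed. The r was 0.17 for *Insig1* and *Hmgcs1* (exact p = 0.749), -0.34 for *Sqle* and *Idi1* (exact p = 0.518), 0.15 for *Cyp51* and *Msmo1* (exact p = 0.797) and 0.44 for *Acly* and *Fasn* (exact p = 0.374). It was -0.36 for *Srebf2* and *Hmgcs1* (exact p = 0.506) and 0.52 for *Lbr* and *Tm7sf2* (exact p = 0.283), and the adjusted p was between 0.567 and 0.797. Spearman's rho ran from -0.31 to 0.54 with exact p from 0.297 to 0.919. Members varied less there, with a median SD of 0.069 on the log2 CPM scale compared with 0.12 for all tested genes, against 0.14 and 0.11 in litters 801 and 803. Over all 378 pairs of members the median r was 0.78 in litters 801 and 803 and 0.0062 in litters 2597 and 2598. The difference between the litter pairs was not tested.

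**Figure D5:**
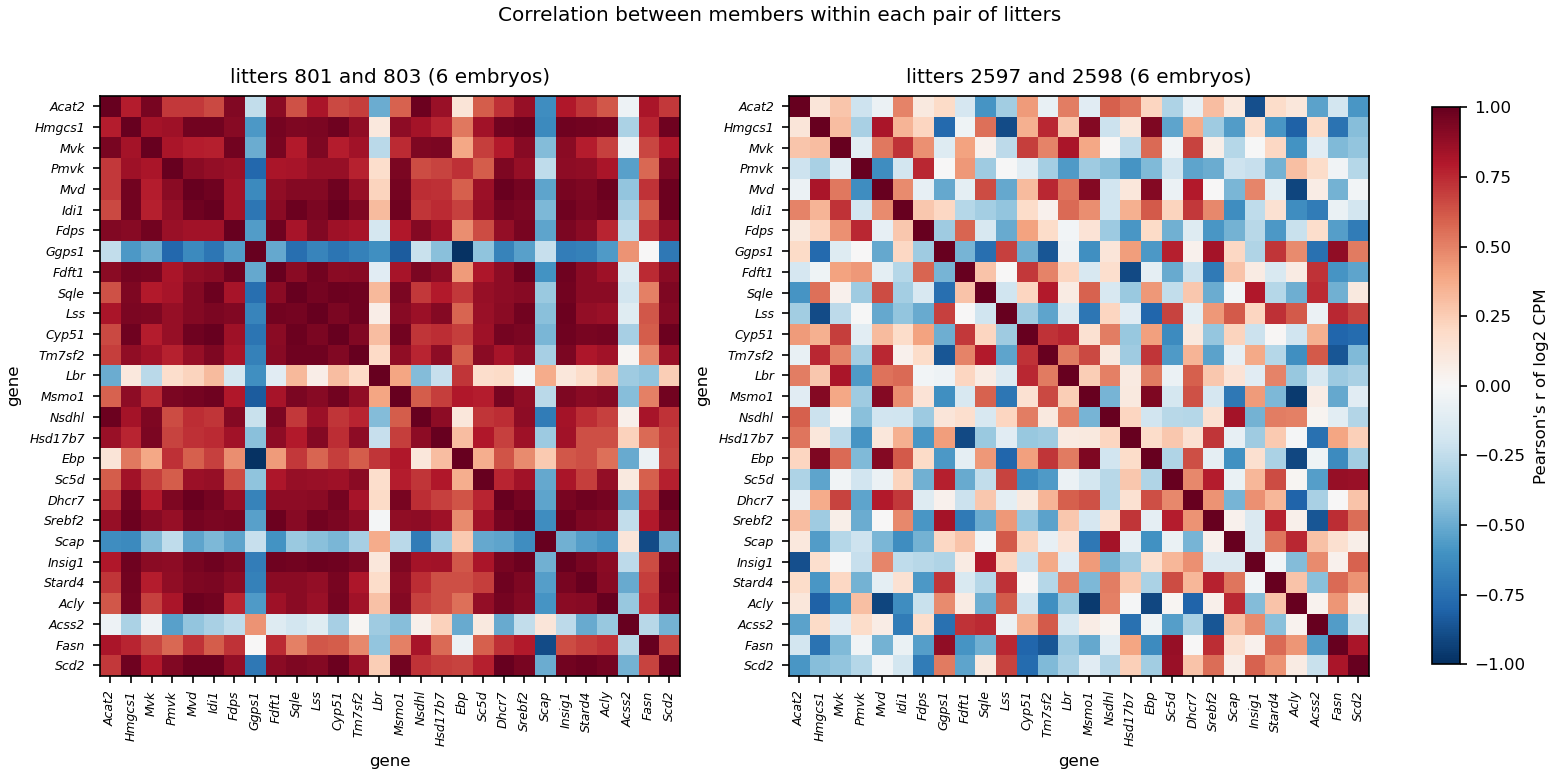
Pearson's r of log2 CPM between every 2 members over the 6 embryos of litters 801 and 803 (left) and of litters 2597 and 2598 (right), in pathway order. The left panel is mostly red, with a median r of 0.78 and *Ggps1*, *Scap*, *Lbr* and *Acss2* as pale or blue stripes, and the right panel is mixed, with a median of 0.0062.

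With the mean of each genotype removed, 21 of 28 members had an r over 0.8 with the mean of the other members over the 16 embryos, led by *Lss* at 0.99 and *Hmgcs1* at 0.99, while *Ggps1* (-0.45), *Acss2* (-0.23) and *Scap* (-0.14) had a negative r. Among 11745 other genes of at least average log2 CPM 2, 0.238% reached 0.8. The most alike by this measure included *Aacs* (r = 0.97), an acetoacetyl-CoA synthetase that feeds lipid synthesis, the pseudogene *Idi1-ps1* (0.96), *Fads2* (0.95), a fatty acid desaturase, and *Scd1* (0.94), a stearoyl-CoA desaturase. *Rnf10* (0.94), *Dbp* (0.92) and *Rdh11* (0.90) followed. Removing the genotype means leaves the division of the wild type by litter in these values. *Aacs* was at 49.8 to 70.8 CPM in litters 801 and 803 and 37.6 to 47.8 CPM in the others, again without overlap, and *Scd1* at 129 to 181 and 92.5 to 126 CPM.

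Further lipid genes were read beside the members. In Tg(*Kat6b*) vs. *Kat6a* KO embryos, which share no litter, 17 of 88 genes of these lists and of the marker lists below were called. Of all tested genes 5.46% were called higher and 7.19% lower in this comparison. With litter as a block 0 of the 88 were called, compared with 0.0515% of tested genes (8 of 15533). Of 22 further genes of SREBP control and lipid synthesis, 5 were lower in Tg(*Kat6b*) vs. *Kat6a* KO embryos, compared with 7.19% of tested genes, 1 was lower in *Kat6a* KO Tg(*Kat6b*) vs. *Kat6a* KO embryos, compared with 3.74%, and none passed vs. the wild type. *Acacb* and *Acaca*, the acetyl-CoA carboxylases, changed by -0.64 (edgeR FDR = 0.00222) and -0.47 (edgeR FDR = 0.000801) and *Elovl6*, a fatty acid elongase, by -0.31 (edgeR FDR = 0.0332). The gene lower in *Kat6a* KO Tg(*Kat6b*) vs. *Kat6a* KO embryos was *Mid1ip1*, a regulator of acetyl-CoA carboxylase, at -0.29 (edgeR FDR = 0.0103). In *Kat6a* KO Tg(*Kat6b*) vs. Tg(*Kat6b*) embryos 1 was higher, compared with 357 of 15679 tested genes. It was *Mbtps2*, a protease that cleaves SREBPs, at 0.21 (edgeR FDR = 0.0341).

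Of 16 genes of sterol export, uptake and LXR response, 2 were higher in Tg(*Kat6b*) vs. *Kat6a* KO embryos, compared with 5.46% of tested genes, *Mylip* at 0.44 (edgeR FDR = 0.00835) and *Osbp*, an oxysterol-binding protein, at 0.16 (edgeR FDR = 0.0321). The 16 summed to 655 to 685 CPM in litters 801 and 803 and 635 to 661 CPM in litters 2597 and 2598. Of 12 genes of fatty acid oxidation, *Ehhadh* was lower in *Kat6a* KO Tg(*Kat6b*) vs. *Kat6a* KO embryos (-0.44, edgeR FDR = 0.0468), compared with 3.74% of tested genes. *Acadl* was lower in *Kat6a* KO Tg(*Kat6b*) vs. Tg(*Kat6b*) embryos (-0.39, edgeR FDR = 0.0204), compared with 178 of 15679 tested genes. In Tg(*Kat6b*) vs. *Kat6a* KO embryos *Cpt1a* was higher (0.43, edgeR FDR = 0.0339) and *Eci1* lower (-0.26, edgeR FDR = 0.0345), compared with 5.46% and 7.19% of tested genes.

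Cell type markers were read beside these results. Of 12 markers of visceral endoderm and liver bud, tissues that handle lipid for the embryo, 10 passed the filter and none was called in any comparison. Their sum was 18 to 60 CPM in litters 801 and 803, 10 to 67 CPM in litters 2597 and 2598 and 47 to 67 CPM in litters 483 and 498. Their median log2 fold change was 0.52 in *Kat6a* KO Tg(*Kat6b*) vs. *Kat6a* KO embryos (9 of 10 positive, 5 of 10 higher without overlap, compared with 7.29% of tested genes) and -0.73 in *Kat6a* KO vs. wild-type embryos within litters 801 and 803 (8 of 10 lower without overlap, compared with 9.75%). In wild-type embryos of litters 801 and 803 vs. those of litters 2597 and 2598 their median was 0.45, the same direction as the members. Of the 10, 2 were higher without overlap there, compared with 19.8% of tested genes. The marker sum was 60, 50, 21 and 67 CPM in wild-type replicates 1 to 4, which overlap between the litter pairs. *Afp*, the main serum protein gene of these tissues, ran from 0.536 to 44.8 CPM over the 16 embryos. The 8 primitive erythroid markers summed to 2824 to 5389, 3656 to 5767 and 3563 to 4336 CPM, with none called. Neural markers summed to 873 to 1032, 893 to 1017 and 770.4 to 925 CPM, the 6 mesoderm and heart markers to 847 to 992, 691 to 1023 and 895 to 967 CPM, and the 6 proliferation markers to 2377 to 2591, 2305 to 2636 and 2371 to 2453 CPM. None of these markers was at 0 in every embryo. In *Kat6a* KO Tg(*Kat6b*) vs. *Kat6a* KO embryos 4 of the 8 neural markers were lower, compared with 3.74% of tested genes, among them *Stmn2* (-0.44, edgeR FDR = 0.00402), *Tubb3* (-0.36, edgeR FDR = 0.000492) and *Elavl3* (-0.29, edgeR FDR = 0.0267), as were *Meox1* (-0.21) and *Pcna* (-0.16). In Tg(*Kat6b*) vs. *Kat6a* KO embryos 4 neural markers were higher, *Hes5* by 0.37 (edgeR FDR = 0.00308), and 4 lower, compared with 5.46% and 7.19% of tested genes. Neural markers were also lower in *Kat6a* KO Tg(*Kat6b*) vs. wild type (1), Tg(*Kat6b*) vs. wild type (1) and *Kat6a* KO Tg(*Kat6b*) vs. Tg(*Kat6b*) (2). Of 15679 tested genes 62, 13 and 178 were called lower there. A mesoderm or heart marker was lower in the first and last of these 3 comparisons. The part of cell makeup in the values of the members was not tested.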

How the data were processed

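RNA was extracted from 16 single whole E9.5 embryos and sequenced from libraries that do not keep strand. The authors deposited raw counts per gene, made by Rsubread alignment to mm39, and the submitters' processing notes name bcl2fastq and featureCounts, with versions not given in the sources used here. Here 15679 of 26411 genes were kept (edgeR 4.0.16, filterByExpr, R 4.3.3), scaled by TMM and tested with the robust quasi-likelihood test over all 16 embryos with 2 surrogate variables (sva 3.50.0). The first of these was negative in every male and positive in every female. Both were negative in the wild-type embryos of litters 801 and 803 and positive in those of litters 2597 and 2598. Values were adjusted by Benjamini-Hochberg over all kept genes, at an FDR of 0.05. CPM values are TMM-scaled and not adjusted for surrogate variables, and RPKM values use the listed gene lengths. Sex was fitted with genotype and no surrogate variable. The fits within litters, those with a litter, sex or replicate term and those of 2 genotypes alone had no surrogate variable either. Log2 CPM had a prior count of 2. Alternatives used DESeq2 1.42.0 and limma 3.58.1, other filters, scalings and covariates, litter or replicate number as blocks, and fits without each embryo. The scripts were tested on simulated data with 200 changed genes. Correlations, set out for all embryos, were taken within litter pairs because the embryos clustered by litter, and used exact permutation (scipy 1.17.1). Embryos are separate animals, and p-values measure the spread between them, with littermates not independent. Total counts of 14407277 to 45665680 put every member well above the filter. All 28 members, and by rule up to 4 called genes of each further list, were named, and *Kat6a*, *Kat6b* and the fits within litters were added after the data were seen. Members and lists were chosen with earlier results of these data known. Some genes of the lists and of the ranking of genes most alike are not reported here.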

Additional observations from a re-analysis of the deposited data

Results flagged for a closer look

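In 6 of the 112 combinations of a member and a genotype, 1 of the 4 embryos stood apart from the rest, by a gap that took up more of the range of the group than Dixon's 95% critical value allows, which chance meets in about 1 group in 20. In 5 of the 6 it was *Kat6a* KO replicate 1, a female of litter 801. *Fdps* was at 89.7 CPM in it, with the nearest embryo at 66.6 and the farthest at 65.1 CPM (gap 0.937 of the range). *Acat2* was at 164 CPM against 148 and 147 CPM (0.953), and *Stard4* at 83.9 CPM against 69.3 and 68.1 CPM (0.925). *Dhcr7* was at 105.0 CPM against 86.8 and 83.4 CPM (0.846), and *Scd2* at 1795 CPM against 1538 and 1490.4 CPM (0.845). The sixth was *Stard4* in Tg(*Kat6b*) replicate 3, at 56.6 CPM against 52.2 and 51.6 CPM (0.874). Without *Kat6a* KO replicate 1 the number of members called lower in *Kat6a* KO Tg(*Kat6b*) vs. *Kat6a* KO embryos was 1 in place of 9, and in Tg(*Kat6b*) vs. *Kat6a* KO embryos 8 in place of 14.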

How the results depend on the processing

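For *Kat6a* KO Tg(*Kat6b*) vs. *Kat6a* KO, 9 members called became 2 with no surrogate variable, 3 with 1 surrogate variable, 3 with sex as covariate, 5 with no filter, 1 with at least 10 counts in every embryo, 14 in a fit of the 2 genotypes alone and 18 with DESeq2. For Tg(*Kat6b*) vs. *Kat6a* KO, 14 became 0 with litter as a block, in a fit that also dropped the surrogate variables and litters 483 and 498. There the estimates of *Mvd* (0.16), *Idi1* (0.070), *Sqle* (0.095), *Dhcr7* (0.066) and *Stard4* (0.020) turned positive, the cause of which was not tested. *Kat6a* KO Tg(*Kat6b*) vs. wild type had 1 member with DESeq2 and 1 with the replicate block, Tg(*Kat6b*) vs. wild type 1 with DESeq2, and *Kat6a* KO Tg(*Kat6b*) vs. Tg(*Kat6b*) 1 with sex as covariate and 1 in the fit of the 2 genotypes alone.

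Leaving out each embryo gave 0 to 7 members for *Kat6a* KO vs. wild type, 0 to 1 for *Kat6a* KO Tg(*Kat6b*) vs. wild type, 1 to 18 for *Kat6a* KO Tg(*Kat6b*) vs. *Kat6a* KO, 0 to 1 for *Kat6a* KO Tg(*Kat6b*) vs. Tg(*Kat6b*), 2 to 22 for Tg(*Kat6b*) vs. *Kat6a* KO, and 0 throughout for Tg(*Kat6b*) vs. wild type, the interaction and sex. Among all genes, the 295 called for *Kat6a* KO vs. wild type became 95 with no and 96 with 1 surrogate variable, 91 with sex, 127 with the replicate block, 18 with litter as a block, 85 in the fit of 2 genotypes, 463 with a gene length trend removed and 34 within litters (47 with sex), and 137 to 432 without 1 embryo. The 22 for Tg(*Kat6b*) vs. wild type became 5 with no or 1 surrogate variable, with sex or with the replicate block, 219 with DESeq2, 13 with no filter, 37 with the stricter filter, 35 with the length trend removed, 2 in the fit of 2 genotypes and 1 with litter as a block or within litters, and 1 to 108 without 1 embryo. The 105 for *Kat6a* KO Tg(*Kat6b*) vs. wild type became 244 with DESeq2 and 220 with the length trend removed (39 to 210 without 1 embryo). The 1119 for *Kat6a* KO Tg(*Kat6b*) vs. *Kat6a* KO became 614, 606, 589 and 738 with no and 1 surrogate variable, sex and no filter (492 to 1671). The 535 for *Kat6a* KO Tg(*Kat6b*) vs. Tg(*Kat6b*) became 883 with DESeq2, 265 in the fit of 2 genotypes and 336 with the length trend removed (165 to 876). The 1984 for Tg(*Kat6b*) vs. *Kat6a* KO became 8 with litter as a block and 1163 in the fit of 2 genotypes (1249 to 2123), and the 24 for the interaction became 138 with DESeq2, 43 with the stricter filter and 42 with the length trend removed (16 to 81).

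The replicate numbers share only a number: same-numbered embryos deviated together with correlations of -0.26 to 0.22, and the replicate block gave 10 members for *Kat6a* KO Tg(*Kat6b*) vs. *Kat6a* KO, 21 for Tg(*Kat6b*) vs. *Kat6a* KO and 0 for *Kat6a* KO vs. wild type. The r of *Acly* and *Fasn* in litters 801 and 803 became 0.98 with genotype and sex means removed. Without the 2 farthest embryos, r was 0.79 for *Insig1* and *Hmgcs1*, 0.99 for *Sqle* and *Idi1*, 0.81 for *Cyp51* and *Msmo1* and 0.60 for *Srebf2* and *Hmgcs1*. The ratio of the highest to the lowest member was 140.2 as CPM in place of 72.8 as RPKM. With 4 embryos a group, and litter tied to genotype, small differences were not resolved, and counting error was not separated from the spread between embryos.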
